A study of Mus musculus with 4 samples.

Results

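The genes described here make, inactivate or sense prostaglandins, or release the arachidonic acid from which they are made. They were chosen by name, as 10 genes of prostaglandin synthesis and reception, with earlier results of these data known. Every probe set that the array's annotation pairs with those symbols was taken. This gave 11 probe sets of 9 genes, out of 19938 genes tested and 35556 features on the array. Ptges3 had 3 probe sets and the other 8 genes 1 each, and none of the 11 listed a second gene. Ptgs1, the constitutive cyclooxygenase, was not analysed here.

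The cells came from male Swiss mice of 4 to 5 months that carried 1000000 transplanted Dalton's lymphoma ascites (DLA) cells, a transplantable tumour whose cells float in the peritoneal fluid. In the irradiated group the whole body received 2 Gy of electrons on day 8 after transplantation, and the DLA cells were taken 48 h later. The control group carried the same tumour and was not irradiated. The day on which the control cells were taken is not given here. Each group had 2 arrays, labelled as biological replicates 1 and 2. The sources used here do not say whether an array held the RNA of 1 mouse or of several, so the spread between arrays may be partly technical. All cells of the fluid were collected together, so host cells are included in whatever share they had.

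Values are log2 intensities made with robust multi-array averaging (RMA), and array medians lay between 6.43 and 6.46. The control arrays differed from each other with an SD of 0.167 over all genes and the irradiated arrays with an SD of 0.362. Of 13 T lymphocyte markers 1 (Lat) reached the median level of all tested genes, 6.68, as did 0 of 9 B lymphocyte markers. Of 12 pan-leukocyte markers 5 reached it, among them Lcp1 at 11.19 to 11.96 and Arhgdib at 10.91 to 11.80, while the leukocyte antigen Ptprc measured 5.49 to 5.64. The epithelial keratins Krt8 and Krt18 measured 13.30 to 14.11 and 12.64 to 13.45. Both are in the trophoblast and the mesothelial marker lists. Of these lists, 8 of 11 and 5 of 10 markers reached the median level. Probe sets of different genes differ in how strongly they bind, so these levels are not amounts that can be set against each other and do not settle what the cells were. They are called the collected cells in what follows.

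Prostaglandins are made from arachidonic acid that a phospholipase A2 cuts from membrane lipids. A cyclooxygenase turns it into prostaglandin H2, and terminal synthases convert that into prostaglandin E2, prostacyclin and other products, which leave the cell and act on G protein-coupled receptors nearby. Ptgs2 is known as an immediate response gene of inflammation and injury, and prostaglandin E2 released from dying or irradiated cells is known to affect the growth of tumour cells around them.

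Of the 9 genes, Ptgs2 had the largest difference, 4.35-fold higher in irradiated cells. Pla2g4a and Ptgis were 1.36-fold and 1.29-fold higher, Ptges2 was 1.41-fold lower, and Ptger4 was 1.23-fold lower. For these 5 genes both irradiated arrays lay on one side of both control arrays, and for Ptges, Ptges3, Hpgd and Ptger2 the groups overlapped. No member passed an adjusted p of 0.05 in limma, 0 of 9, where 1 of 19938 genes did (0.00502%). At an unadjusted p under 0.05, 4 of 9 passed (Ptgs2, Pla2g4a, Ptgis and Ptges2), against 10.3% of all genes, with 3 higher (5.21% of all genes) and 1 lower (5.1%). With a difference of at least 1.5-fold as well, Ptgs2 alone passed, against 2.37% of all genes (1.7% higher and 0.672% lower). Groups that did not overlap were found for 5 of 9 members and for 41.7% of all genes, 3 above (17.8%) and 2 below (23.9%).

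The median difference of the 9 members was −0.06 on the log2 scale, beside −0.03 for all tested genes, with 4 members higher (43.4% of all genes) and 5 lower (55.4%). The members did not share a direction. An exact permutation test of 2 arrays against 2 cannot go below p = 0.333, so single genes were read from the limma fit over all genes. Without control replicate 1 or control replicate 2 the count of members at an unadjusted p under 0.05 was 0, where 1.91% and 2.06% of all genes passed. It was 5 without irradiated replicate 1, where 29.7% of all genes passed, and 5 without irradiated replicate 2, where 15.3% did. The members' count thus moved with that of all genes.

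**Figure D1:**
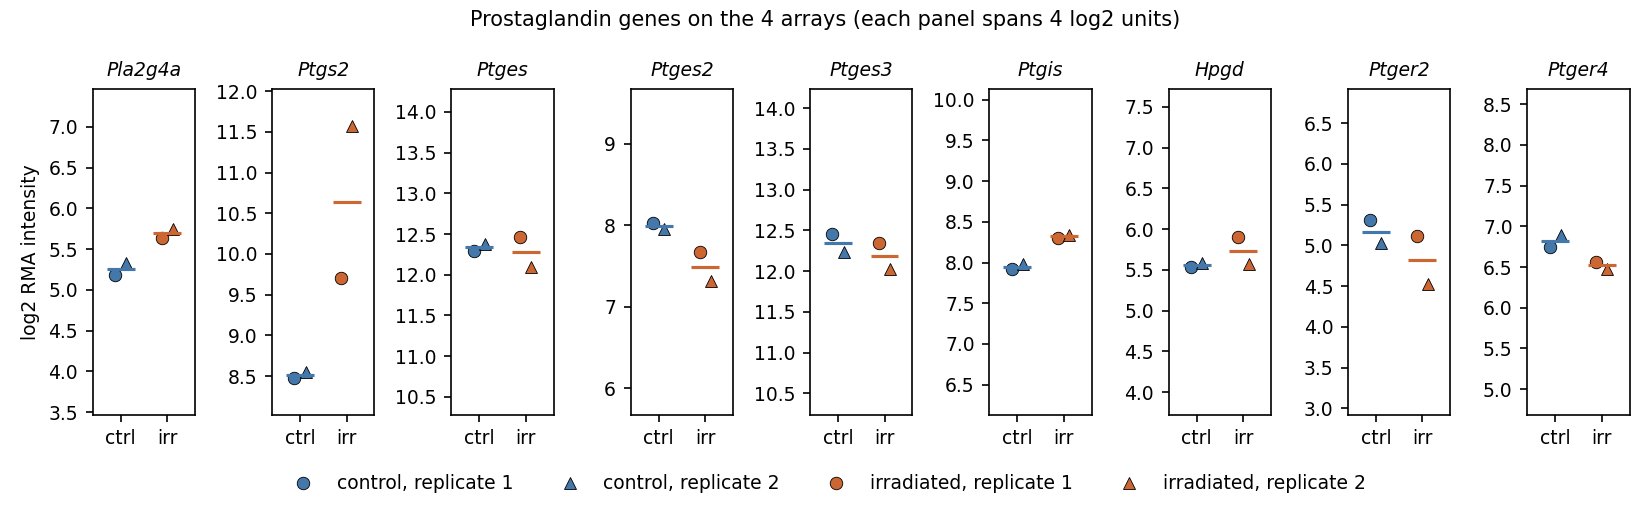
Log2 RMA intensity of the brightest probe set of each of the 9 genes on the 4 arrays, with lines at the group means. Every panel spans the same 4 log2 units, and Ptgs2 stands out by its distance between groups and by the gap between its irradiated arrays, at 9.70 and 11.57.

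Pla2g4a encodes the cytosolic phospholipase A2 that releases arachidonic acid after a rise in calcium. Its probe set was dim, at 5.18 and 5.33 in the control arrays and 5.64 and 5.75 in the irradiated arrays. Both irradiated arrays lay above both controls, and the gaps within groups, 0.15 and 0.11, were smaller than that between them. The log2 difference, 0.44, had a standard error of 0.12 and a 95% interval from 0.13 to 0.75 (limma adjusted p = 0.411). Leaving out irradiated replicate 2 gave 0.385, and leaving out irradiated replicate 1 gave 0.495.

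Ptgs2, the inducible cyclooxygenase that commits arachidonic acid to prostaglandins, measured 8.48 and 8.55 in the control arrays. It measured 9.70 in irradiated replicate 1 and 11.57 in irradiated replicate 2. Both irradiated arrays were above the controls, but by unequal amounts, 2.27-fold and 8.31-fold over the control mean. The group means were 8.52 ± 0.05 and 10.64 ± 1.32 (log2, SD, n = 2 arrays each). The log2 difference of 2.12 had a standard error of 0.58 and a 95% interval from 0.68 to 3.56 (limma adjusted p = 0.398), and ranked 14th from the top among 19938 genes. The gap of 1.87 between its irradiated arrays was reached by 34 genes, 0.171% of those tested, whereas its control gap of 0.07 was reached or exceeded by 12957. The size of the difference therefore depended on the irradiated array: leaving out irradiated replicate 2 gave 1.185, and leaving out irradiated replicate 1 gave 3.055.

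Ptgs2 and Pla2g4a are neighbours on mouse chromosome 1, with 0 protein-coding genes between them in the RefSeq annotation. Both act in the first steps of the pathway, and both were higher on both irradiated arrays. They are not the only genes of these steps. Ptgs1 was not analysed here, and of 22 other phospholipases A2 and arachidonate supply genes 9 were higher and 13 lower. Their start regions are shown because the difference between them is wide. The windows run from 250 bases before the RefSeq start to the 30th base from it (build GRCm38.p6, RefSeq), read 5′ to 3′ on the gene's strand, with matches to 8 motifs in capitals.
Ptgs2, chr1:150099781-150100060, plus strand: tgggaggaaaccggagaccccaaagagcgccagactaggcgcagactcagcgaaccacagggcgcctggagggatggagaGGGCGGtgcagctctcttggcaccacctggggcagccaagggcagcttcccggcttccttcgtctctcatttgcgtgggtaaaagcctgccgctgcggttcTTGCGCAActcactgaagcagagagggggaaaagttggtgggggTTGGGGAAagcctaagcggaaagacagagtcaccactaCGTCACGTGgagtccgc
Pla2g4a, chr1:149961261-149961540, minus strand: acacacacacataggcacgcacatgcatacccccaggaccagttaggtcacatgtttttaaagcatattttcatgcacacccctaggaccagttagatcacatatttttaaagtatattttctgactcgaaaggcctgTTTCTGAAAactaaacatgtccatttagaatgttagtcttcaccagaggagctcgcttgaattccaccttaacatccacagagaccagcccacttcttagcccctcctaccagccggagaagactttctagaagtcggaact

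The motifs searched on both strands were the TATA box (TATAAA), the CCAAT box (CCAAT), the CRE core (TGACG), AP-1 (TGANTCA), the E-box (CACGTG), the C/EBP motif (TTNNGNAA), the GC box (GGGCGG) and the NF-kB consensus. The Ptgs2 window held matches to 4 of them. A reversed CRE core and an E-box overlapped in the 9 letters CGTCACGTG, from the 14th to the 22nd base counted from the 1 RefSeq start listed for Ptgs2. All positions are relative to RefSeq starts, and where transcription began in the collected cells was not tested. A start elsewhere would shift every position and the bases searched. These 9 letters, on either strand, were in 144 of 32851 RefSeq start windows of the same length, 0.438%. The windows were extended past the start, and the 9 letters counted, after matches in the 250 bases before the start had been seen; in those 250 bases Ptgs2 matched 2 of the motifs, C/EBP and the GC box. Upstream lay 2 C/EBP matches, TTGCGCAA at 69 to 62 bases and TTGGGGAA at 25 to 18 bases before the start, and a GC box at 170 to 165 bases before it. The C/EBP motif was in 39.3% of all windows and the GC box in 34.7%.

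In the Pla2g4a window, taken at the outermost of 2 listed starts, the C/EBP motif was the one matched, with overlapping matches on both strands at 112 to 104 bases before the start. GC content was 61.4% with 16 CpG in the Ptgs2 window and 43.9% with 5 CpG in the Pla2g4a window, against medians of 52.5% and 6 over all windows. A match describes letters in this window and is not evidence that a factor was bound.

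The terminal synthases of prostaglandin E2 had bright probe sets that differed little or were lower. Ptges, the membrane synthase known to be induced together with Ptgs2, measured 12.29 and 12.38 in controls and 12.46 and 12.10 in irradiated arrays. The irradiated arrays lay on either side of the controls. The difference was −0.06 with a 95% interval from −0.45 to 0.34 (limma adjusted p = 0.924). Its direction turned with quantile normalization, to 0.01.

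Ptges2, a second membrane-bound enzyme that can make prostaglandin E2, measured 8.03 and 7.96 in controls against 7.67 and 7.32 in irradiated arrays. Both irradiated arrays lay below both controls. Its log2 difference of −0.50 had a standard error of 0.15 and a 95% interval from −0.89 to −0.11 (limma adjusted p = 0.441). The value against irradiated replicate 1 alone was −0.325 and against irradiated replicate 2 alone −0.675, so both irradiated arrays carried the direction.

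The Ptges2 start window is shown as that of the 1 member at an unadjusted p under 0.05 that was lower.
Ptges2, chr2:32395640-32395919, plus strand: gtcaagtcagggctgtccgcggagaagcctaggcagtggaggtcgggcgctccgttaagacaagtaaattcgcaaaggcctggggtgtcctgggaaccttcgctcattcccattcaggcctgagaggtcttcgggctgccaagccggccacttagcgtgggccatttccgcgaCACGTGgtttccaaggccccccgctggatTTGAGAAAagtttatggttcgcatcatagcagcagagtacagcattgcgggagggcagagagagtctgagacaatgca
It shared the E-box CACGTG with Ptgs2, here at 77 to 72 bases before the start, and held a C/EBP match, TTGAGAAA, at 48 to 41 bases before it. The E-box was in 6.79% of all windows. Of the 9 members with a start window, Ptgs1 included, 2 held an E-box (Ptgs2 and Ptges2), 2 a CRE core (Ptgs2 and Ptges3), 6 a C/EBP motif, 5 a GC box and 1 the NF-kB consensus (Ptges3). A CRE core was in 19.9% of all windows and the NF-kB consensus in 7.94%. In the 250 bases before the RefSeq start alone, 1 member window (Ptges2) held an E-box and 0 a CRE core. Ptges3 had the window richest in CpG among the members, with 42, and Ptger2 the poorest, with 3.

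Ptges3 encodes the p23 protein, known both as a cytosolic prostaglandin E synthase and as a co-chaperone of Hsp90. Its brightest probe set measured 12.45 and 12.23 in controls and 12.34 and 12.02 in irradiated arrays, a difference of −0.16 with a 95% interval from −0.56 to 0.24 (limma adjusted p = 0.748). The second probe set measured 11.66 and 11.52 in controls and 11.61 and 11.31 in irradiated arrays. The third measured 9.39, 9.47, 9.49 and 9.38 in the same order of arrays. In the fit of all annotated probe sets the differences of these 2 were −0.13 and 0.01 (limma adjusted p = 0.781 and 0.991). The groups overlapped for all 3 probe sets. The brightest probe set had a difference of 0.00 without irradiated replicate 2.

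Ptgis is the synthase of prostacyclin, a product best known from vessel walls. It measured 7.92 and 7.98 in controls and 8.30 and 8.34 in irradiated arrays. It was the most even of the members that were higher: the irradiated arrays lay 0.35 and 0.39 above the control mean and 0.04 from each other. This difference of 0.37 had a standard error of 0.11 and a 95% interval from 0.09 to 0.65 (limma adjusted p = 0.436). Ptgis is named here without its start window.

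Hpgd, the dehydrogenase that starts the breakdown of prostaglandins, was dim. It measured 5.54 and 5.58 in controls and 5.90 and 5.57 in irradiated arrays, so that irradiated replicate 1 was higher and irradiated replicate 2 lay among the controls. The difference was 0.175 with a 95% interval from −0.20 to 0.55 (limma adjusted p = 0.710). It came to 0.34 with irradiated replicate 1 alone and to 0.01 with irradiated replicate 2 alone.

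**Figure D2:**
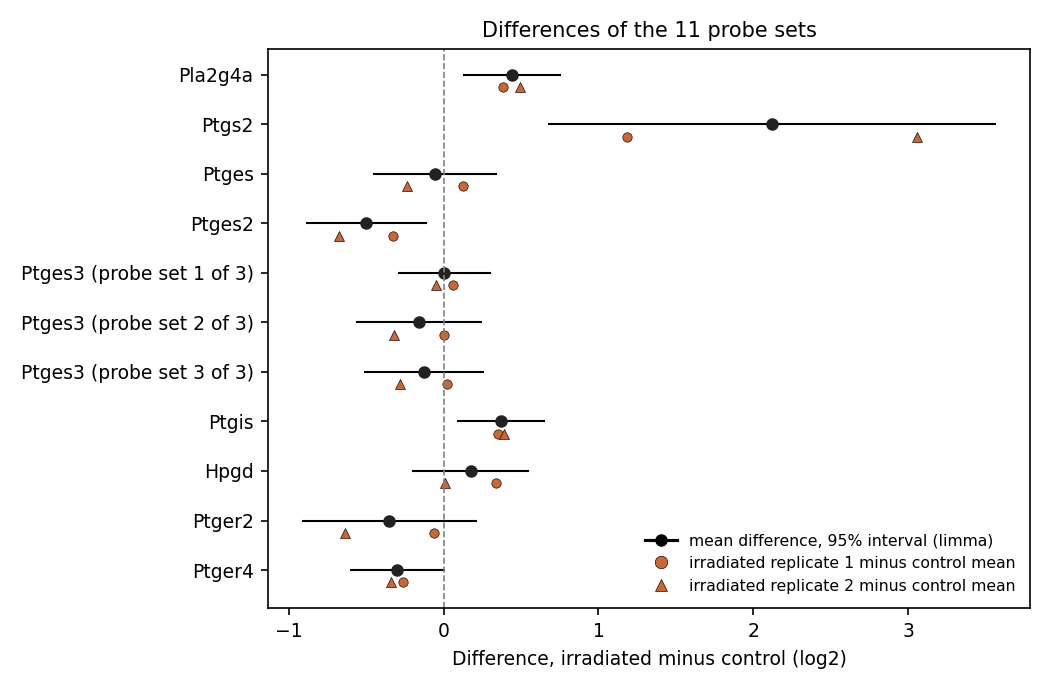
Log2 differences, irradiated minus control, of the 11 probe sets with limma 95% intervals (black), and the 2 irradiated arrays against the control mean (orange). The intervals of Pla2g4a, Ptgs2, Ptgis and Ptges2 lie to one side of 0, and the irradiated arrays of Ptgs2 lie at 1.185 and 3.055.

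Ptger2 and Ptger4 encode EP2 and EP4, the receptors of prostaglandin E2 that raise cyclic AMP. Ptger2 measured 5.31 and 5.03 in controls and 5.11 and 4.53 in irradiated arrays, with overlapping groups. Its difference was −0.35 with a 95% interval from −0.91 to 0.21 (limma adjusted p = 0.624), and it rested on irradiated replicate 2: without that array it was −0.06, and with it alone −0.64. Ptger4 measured 6.75 and 6.89 in controls and 6.56 and 6.48 in irradiated arrays, both below the controls. Its difference was −0.30 with a 95% interval from −0.60 to 0.00 (limma adjusted p = 0.484). Ptger2 was below the median level of all tested genes, and Ptger4 was close to it.

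The irradiated arrays differed by at least 0.3 for 5 of the 9 genes apart from Ptgs2 itself. Irradiated replicate 2 was the lower one for Ptges, Ptges2, Ptges3, Hpgd and Ptger2, with gaps from 0.32 to 0.58, while it was the higher one by 1.87 for Ptgs2. Such gaps are common among all genes in these arrays: 31.0% of tested genes had irradiated arrays at least as far apart as those of Ptges3 and 8.27% as those of Ptger2. Ptgis, Ptger4 and Pla2g4a had gaps from 0.04 to 0.11.

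Other genes of the pathway were followed in fixed lists. Of 7 other prostanoid enzymes, 4 lay higher and 3 lower around a median of 0.05, and 0 passed an unadjusted p under 0.05 in limma with a 1.5-fold difference or without one. Without irradiated replicate 1 the numbers were 2 higher and 4 lower, with a median of −0.05 and 1 lower past the rule, so the list had no stable direction. The 2 with the smallest p were Ptgr1, a reductase that inactivates prostaglandins and leukotriene B4, and Prxl2b, a prostaglandin F synthase. Ptgr1 measured 6.76 and 6.76 in controls and 7.06 and 7.01 in irradiated arrays (adjusted p = 0.488 in limma). Prxl2b measured 5.78 and 5.87 in controls and 5.65 and 5.22 in irradiated arrays (limma adjusted p = 0.516).

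Of 10 other prostanoid receptors and transporters, 2 were higher and 8 lower, with a median of −0.10. Slco2a1, the transporter that takes prostaglandins up into cells, was the 1 of 10 past the 1.5-fold rule. It measured 10.93 and 10.96 in controls and 11.39 and 11.92 in irradiated arrays, so that both irradiated arrays were higher and replicate 2 the more so, as for Ptgs2. Its difference, 0.71, had a standard error of 0.19 (limma adjusted p = 0.400). Slco2a1 did not pass without control replicate 1, control replicate 2 or irradiated replicate 2. Abcc4, an exporter of prostaglandins, was lower by 0.28 in even steps, at 8.66 and 8.65 against 8.38 and 8.37 (limma adjusted p = 0.481); it was named after its values were seen. The receptors of the list, Ptger1, Ptger3, Ptgir, Ptgfr, Ptgdr, Ptgdr2 and Tbxa2r, had probe sets at 5.10 to 6.93 and differences between −0.31 and 0.17.

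Of 22 other phospholipases A2 and genes of arachidonate supply, 9 were higher and 13 lower, with a median of −0.01. The 1 past the 1.5-fold rule was Pla2g7, a secreted enzyme that degrades platelet-activating factor and is not a source of arachidonic acid. It measured 7.57 and 7.45 in controls and 8.88 and 8.73 in irradiated arrays, which is a difference of 1.29 (standard error 0.12, limma adjusted p = 0.193). The difference was about equal on both irradiated arrays, unlike that of Ptgs2. At an unadjusted p under 0.05 in limma 1 of the list was higher, Pla2g7, and 2 were lower. The lower ones were Pla2g15 and Pla2g2d, with differences of −0.42 and −0.47 (limma adjusted p = 0.411 and 0.441). Both were named after their values were seen.

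In the lipoxygenase and leukotriene list, which competes for arachidonic acid, 7 of 14 genes were higher and 7 lower, with a median of −0.01 and 0 past the 1.5-fold rule. At an unadjusted p under 0.05 in limma, 2 were higher. Alox5ap, which presents arachidonic acid to the lipoxygenase Alox5, measured 7.80 and 7.90 in controls and 8.29 and 8.26 in irradiated arrays (limma adjusted p = 0.394). The leukotriene receptor Cysltr1 measured 7.55 and 7.56 in controls and 8.24 and 7.93 in irradiated arrays (limma adjusted p = 0.398). Alox5 itself measured 5.69 and 5.84 in controls and 5.91 and 5.41 in irradiated arrays, on either side of the controls.

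**Figure D3:**
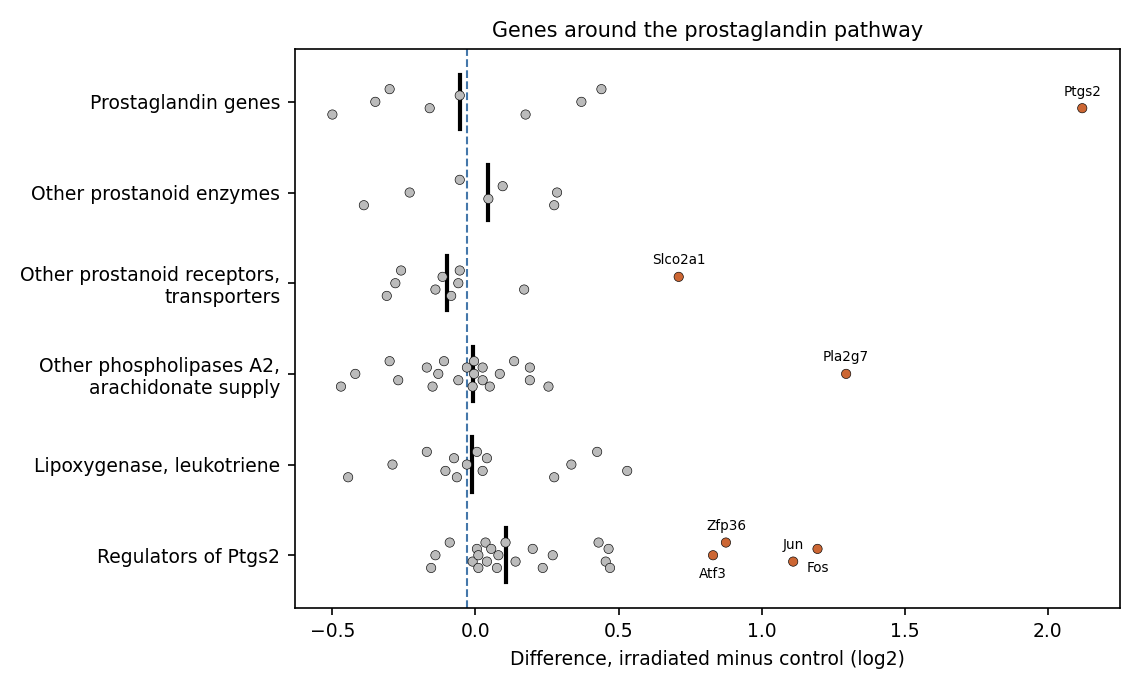
Log2 differences, irradiated minus control, of the genes of the prostaglandin set and of the 5 pathway lists (points), with list medians (black bars) and the median of all tested genes (dashed line, −0.03). Orange points passed the rule of a 1.5-fold difference and an unadjusted p under 0.05, vertical scatter within a list has no meaning, and among these genes Ptgs2 at 2.12 lies farthest to the right.

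Of 25 transcription factors and RNA-binding proteins known to control Ptgs2, 21 were higher and 4 lower, beside 43.4% and 55.4% of all genes. The list median was 0.11. Without irradiated replicate 1 the numbers were 15 higher and 10 lower, with a median of 0.065. At an unadjusted p under 0.05 in limma 7 were higher, Rel and Nfatc2 among them, and 0 lower (5.21% and 5.1% of all genes). Of the 25, 21 were at or above the median level of all tested genes, where more genes pass. In the fit of genes at or above that level, 16% had an unadjusted p under 0.05, against 10.3% of all genes. Past the 1.5-fold rule were 3.63% against 2.37%, all in either direction. By that rule 4 of the 25 regulators passed, all higher, against 1.7% of all genes. They were the AP-1 subunits Jun and Fos, the stress factor Atf3, and Zfp36, which destabilises Ptgs2 and other inflammatory messenger RNAs. Without either control array the count was 1, and it was 4 without either irradiated array. Jun measured 8.87 and 8.99 in controls and 10.27 and 9.81 in irradiated arrays (limma adjusted p = 0.259). Fos measured 7.58 and 7.71 in controls and 9.37 and 8.31 in irradiated arrays (limma adjusted p = 0.414).

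Zfp36 measured 9.39 and 9.50 in controls and 10.72 and 9.92 in irradiated arrays (adjusted p = 0.441 in limma), and Atf3 9.64 and 9.51 against 10.85 and 9.96 (limma adjusted p = 0.452). All 4 were higher on irradiated replicate 1 than on irradiated replicate 2, which is the opposite of Ptgs2. The E-box factors Usf1 and Usf2 and the C/EBP factors Cebpb, Cebpd and Cebpa, whose motifs were searched above, had differences from −0.14 to 0.14. Creb1, which binds CRE, measured 8.59 and 8.61 in controls and 8.72 and 8.88 in irradiated arrays (limma adjusted p = 0.606). The NF-kB subunit Rela had a difference of 0.01 and Rel one of 0.455. These factors were named after their values were seen.

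The genes whose pattern was nearest to that of Ptgs2 were found by the Euclidean distance of log2 values, each centred on its control mean, over the 4 arrays. They were Grpr, the receptor of gastrin-releasing peptide (distance 0.25), the complement protease C1s1 (0.31), the stromelysin Mmp10 (0.50), the placental prolactin Prl2c5 (0.54), the monocyte chemokine Ccl2 (0.69) and the synaptic protein Snap25 (0.73). C1s1 measured 4.24 and 4.41 in controls and 5.21 and 7.32 in irradiated arrays. Ccl2 measured 6.30 and 6.39 in controls and 7.07 and 9.91 in irradiated arrays. All 6 were highest on irradiated replicate 2, as the measure of likeness requires with few arrays, and the likeness is a description over 4 arrays. No other prostaglandin gene was among them.

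**Figure D4:**
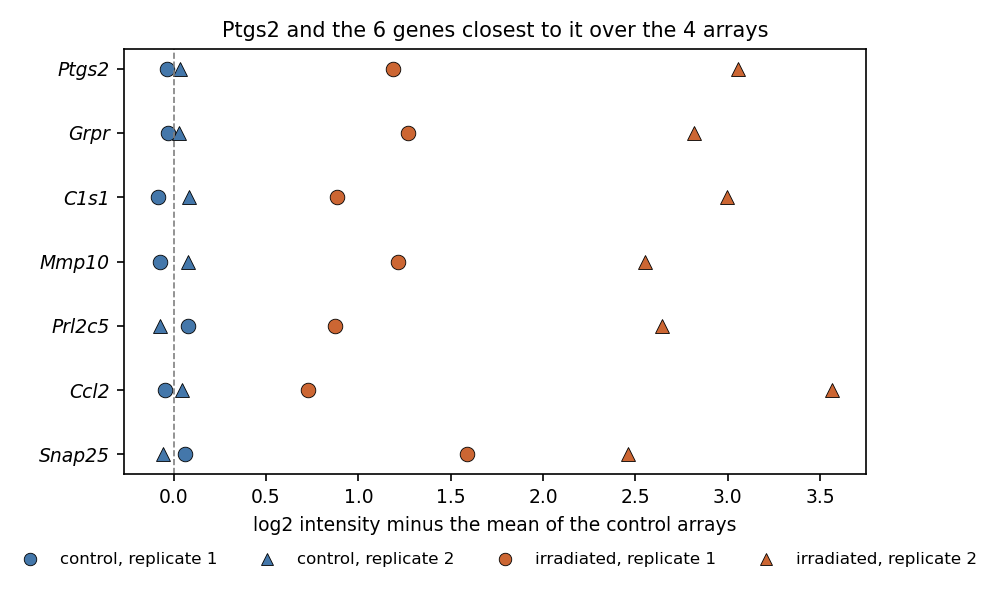
Log2 intensity minus the control mean of Ptgs2 and the 6 genes nearest to it, on each array. Irradiated replicate 2 is to the right of irradiated replicate 1 in all 7, from 2.46 for Snap25 to 3.565 for Ccl2.

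Markers of cells that are known to make prostaglandins were read beside these results. In collected cells, a change in the share of a cell type and a change of RNA per cell cannot be told apart. Of 16 macrophage markers, 8 were higher and 8 lower, and their summed level was 10.56 and 10.59 in controls and 10.69 and 10.58 in irradiated arrays (log2 of summed intensities). Mrc1, the mannose receptor, was the 1 past the 1.5-fold rule, at 6.09 and 6.01 in controls and 6.92 and 6.98 in irradiated arrays (limma adjusted p = 0.201). At an unadjusted p under 0.05 in limma 2 were higher (Mrc1 and Lyz2) and 2 lower (Csf1r and Mertk), with differences of 0.57 for Lyz2, −0.52 for Csf1r and −0.345 for Mertk. The defining markers Adgre1, Timd4 and Cd68 measured 4.14 to 4.31, 5.11 to 5.79 and 8.84 to 9.04, each with overlapping groups. The markers of this list thus moved in both directions. Of 10 mast cell markers 4 were higher and 5 lower, with Cpa3 at 3.70 to 4.31 and summed levels of 9.01 to 9.06 in controls and 8.92 to 9.15 in irradiated arrays. Of 7 platelet markers 4 were higher and 3 lower, with summed levels of 8.90 to 8.92 and 8.98 to 9.01. Those at an unadjusted p under 0.05 in limma were 2, both higher: Ppbp, past the 1.5-fold rule at 5.92 and 5.76 against 6.35 and 6.69, and Pf4, at 4.44 and 4.47 against 4.70 and 4.92 (limma adjusted p = 0.363 and 0.460). These are platelet chemokines.

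Of 16 neutrophil markers, 13 were lower and 3 higher, with a median of −0.57, and by the 1.5-fold rule 8 were lower and 2 higher. Retnlg had the lowest difference of all tested genes, −2.60, at 7.19 and 7.85 in controls and 5.12 and 4.72 in irradiated arrays. The receptors Il1r2 and Cxcr2 had differences of −1.225 and −1.155, and the calcium-binding protein S100a9 measured 6.67 and 7.01 against 5.66 and 6.02. The 2 higher by that rule were Ly6g, at 8.87 and 8.82 against 12.04 and 11.89 (the 1 tested gene past the adjusted threshold, limma adjusted p = 0.0117), and Mmp9, at 8.25 and 8.14 against 9.86 and 9.10. The summed level, to which bright probe sets contribute most, went from 10.97 and 11.10 in controls to 12.50 and 12.60 in irradiated arrays, against the direction of most of the list. Lcn2 entered the irradiated sums unequally, at 8.04 and 8.21 in controls against 5.80 and 10.27 in irradiated arrays. Of 10 mesothelial markers 6 were lower and 4 higher, with summed levels of 15.09 and 15.10 in controls and 14.83 and 14.23 in irradiated arrays. Most of that signal came from the keratins, which other epithelial cells share. Of 12 fibroblast and endothelial markers 9 were lower and 3 higher, with summed levels of 9.79 to 9.85 and 9.77 to 9.79. Of 12 pan-leukocyte markers 5 were higher and 7 lower, and by the 1.5-fold rule 2 were higher (Lcp1 and Arhgdib) and 2 lower (Srgn and Cd52). Of 5 erythroid markers 2 were higher and 3 lower, and of 11 trophoblast markers 3 and 8. By the same rule 2 mesothelial markers (Krt18 and Krt19), 1 erythroid marker and 2 trophoblast markers (Krt18 again and Krt7) were lower. The mast cell and fibroblast and endothelial lists had 0 past it. The markers given here by name were chosen after their values were seen. No marker was at 0, since RMA gives every probe set a value. The part of any of these cells in the Ptgs2, Ptgis or Pla2g4a differences was not tested.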

How the data were processed

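Total RNA (300 ng per array) was labelled with biotin and measured on 4 one-colour arrays, per the labels' protocols. The deposited values were log2 intensities of probe sets, which the authors made with RMA, per the submitters' processing notes. RMA gives all arrays 1 distribution of probe intensities before these are summarised, and compresses differences of dim probe sets. The probe set values themselves did not share 1 distribution exactly, with array medians from 6.43 to 6.46. The genome build behind the probe sets was not given in the sources used here, while the table held 0 columns of other samples.

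Gene names came from the array platform's annotation, with symbols updated through Entrez identifiers in RefSeq (GRCm38.p6). Of 35556 probe sets, 21789 listed 1 gene, 1621 listed several and 12146 were not in the annotation. The brightest probe set of each gene was tested, which left 19938 genes. Groups were compared with limma 3.58.1 in R 4.3.3 (lmFit and eBayes, two-sided, Benjamini-Hochberg adjustment over all genes). Degrees of freedom were 2 (residual) and 3.48 (prior). A second rule took an unadjusted p under 0.05 with a difference of at least 1.5-fold. The procedure was tested on simulated data.

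All 10 members were named, with up to 4 genes of each pathway list by the second rule and p (otherwise the 2 with the smallest p) and the 6 genes nearest to Ptgs2. Of 216 list entries, 199 matched a tested gene. Ptgr1 is in 2 lists, and so are Krt8 and Krt18 (mesothelial and trophoblast). Members and lists were chosen with earlier results of these data known. Motifs were searched in RefSeq start windows of 280 bases, the outermost start of each member being used, and this length was chosen after matches in the 250 bases before the start had been seen. Alternatives were filters, normalization, probe set choice, variance moderation, the replicate block and each array left out. The number of arrays limits the precision, and scan dates were not used here.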

Additional observations from a re-analysis of the deposited data

How the results depend on the processing

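Over the 13 alternatives the Ptgs2 difference stayed positive, from 1.185 to 3.055, with limma adjusted p from 0.125 to 0.998. No member passed the adjusted threshold under any of them. Ptges turned positive with quantile normalization (0.0113) and in fits without 1 array ran from −0.235 to 0.125, positive without irradiated replicate 2; the cause was not tested. The other 7 members kept their direction, except that Ptges3 was 0.00 without irradiated replicate 2. The median filter left out 4 of the 9 members and the 25th percentile filter 1 (Ptger2). In fits of 3 arrays the lone array is assumed to vary like the other group. With 1 array left out, members past the 1.5-fold rule numbered 0 to 3, where the 3, without irradiated replicate 1, were Ptgs2, Ptges2 and Ptger2. Ptgs2 missed the rule without control replicate 1 and without control replicate 2. All genes past that rule numbered 315 to 1558 with an array left out and 91 with a 2-fold minimum.

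Genes past the adjusted threshold were 1 in the comparison as reported, 0 with any array left out and 6 in the fit of all annotated probe sets. With the replicate number as a block the count was 0 (476 by the 1.5-fold rule), and the same 4 members had an unadjusted p under 0.05, as did 8.55% of all genes. The comparison as reported was planned without this block. Same-numbered arrays did not deviate together (r = 0.07 across genes, 2 pairs). With an array left out, list medians ran from −0.05 to 0.14 for prostanoid enzymes, from −0.215 to −0.02 for receptors and transporters, from −0.05 to 0.0175 for phospholipases and from −0.045 to 0.1025 for leukotriene genes.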
